A study of Mus musculus with 13 samples.

Results

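The 6 genes Pdgfra, Pdgfrb, Col1a1, Dcn, Lum and Thy1, which mark fibroblasts and the matrix they make, were followed in mouse breast tumours through the level of 5-hydroxymethylcytosine (5hmC) around them. Each gene was represented by every 300 kb bin that its body overlaps. Dcn spans 2 bins and shares the second with Lum, so the 6 genes lie in 6 of the 9097 bins of the table. The bins follow from the genes' positions, while the genes were chosen with earlier results of these data known. The samples were 13 whole PyMT breast tumours, driven by the polyoma virus middle T antigen in mice of strain FVB and measured by shallow tet-assisted bisulfite sequencing (TAB-seq), which reads 5hmC as the cytosines that stay unconverted. Each tumour came from a separately numbered mouse per the labels. In one model, 16-week-old mice were heterozygous (Phd2+/-, n = 4) or wild type (Phd2+/+, n = 3) for Phd2, the gene of an oxygen sensor. The labels describe Phd2+/- tumours as having restored vessels and oxygen. In the other, 12-week-old FVB mice, for which the labels name no Phd2 allele, carried either a PRRL2 plasmid for sFlk1 (n = 3), a soluble form of a VEGF receptor that makes tumours more hypoxic per the labels, or the empty PRRL2 plasmid (n = 3). Both plasmids were given by hydrodynamic injection, while no plasmid was given in the Phd2 model. The cells that drive the oncogene, and those that took up a plasmid, are not given in the labels. Age and model differ together, and groups are therefore tested only within a model, while ranks over all 13 tumours are descriptions.

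TET enzymes make 5hmC by oxidising 5-methylcytosine, a reaction that uses oxygen, and 5hmC tends to lie in the bodies of active genes and at enhancers. Stromal fibroblasts surround the epithelial tumour cells, respond to platelet-derived growth factors through the receptors PDGFRA and PDGFRB, and secrete collagen and the proteoglycans that organise it. A bin value is the percentage over 300 kb and belongs to all genes there. As DNA of whole tumours was measured, the share of fibroblasts in a tumour and the 5hmC level in each fibroblast cannot be told apart, and 5hmC at marker genes does not check which cells were present. Depth is unknown because the table holds no read counts.

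Over all tumours the 6 bins ranged from low to moderately high 5hmC. The Col1a1 bin averaged 4.36% ± 1.29 (SD, n = 13 tumours, all groups pooled), which put it at percentile 82.8 of the 8576 bins tested. The Pdgfrb bin followed with 3.43% ± 0.798 (percentile 68.3), the Pdgfra bin with 3.0% ± 0.922 (60.9), the first Dcn bin with 2.89% ± 0.784 (59.1), the Thy1 bin with 2.21% ± 0.686 (47.4) and the bin shared by Dcn and Lum with 1.64% ± 0.647 (37.5). The median bin held 2.36%. Of the 5 neighbouring steps in this order, 4 were smaller than the SD of the paired difference over the 13 tumours. The exception was the step between the first Dcn bin and the Thy1 bin, 0.686 ± 0.626 percentage points, with the Dcn bin higher in 11 of 13 tumours. The ends of the order were steadier. Col1a1 was the highest of the 6 bins in 10 of 13 tumours, and the Dcn and Lum bin was the lowest in 9 of 13, Thy1 being lowest in the other 4.

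**Figure D1:**
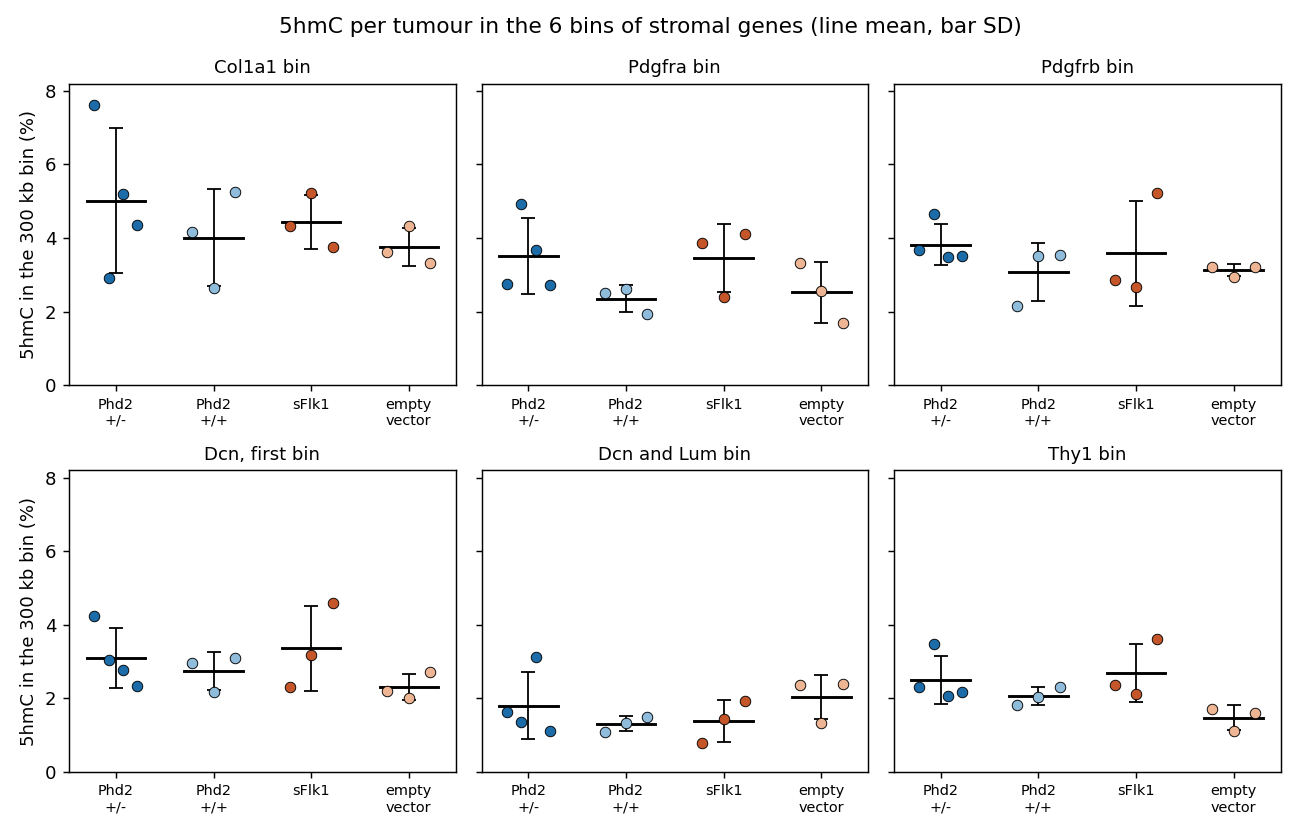
5hmC percentage of each tumour (points, in replicate order) in the 6 bins, with group mean (line) and SD (bar); groups are Phd2+/- (n = 4), Phd2+/+, sFlk1 and empty vector (n = 3 each). The Pdgfra bin separates Phd2+/- from Phd2+/+ tumours and the Thy1 bin separates sFlk1 from empty vector tumours, while the other pairs overlap.

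Genome-wide, mean 5hmC was 2.87% ± 0.265 (SD, n = 4) in Phd2+/- and 2.34% ± 0.137 (SD, n = 3) in Phd2+/+ tumours (exact two-sided permutation p = 0.0571, smallest possible 0.0286). It was 2.46% ± 0.067 in sFlk1 and 2.68% ± 0.158 in empty vector tumours (SD, n = 3 each, exact two-sided permutation p = 0.10, the smallest possible). The bins were tested with limma on the percentages of all 13 tumours, adjusted by Benjamini-Hochberg over the 8576 bins. None of the 6 bins passed an adjusted p of 0.05 in either comparison. The background was as low: 0 bins (0.0%) passed for Phd2+/- against Phd2+/+, where 930 (10.8%) had an unadjusted p under 0.05, 10.4% higher and 0.443% lower, and 0 of the 6. For sFlk1 against empty vector 1 bin (0.0117%) passed, lower in sFlk1 and no member, with 616 (7.18%) at an unadjusted p under 0.05, 2.12% higher and 5.06% lower, and 1 of the 6, Thy1, higher. The number of all bins past the adjusted p in the sFlk1 model was 4 without sFlk1 tumour 1 and 2 without sFlk1 tumour 2, sFlk1 tumour 3 or empty vector tumour 2. In the Phd2 model that number was 1 without Phd2+/- tumour 3.

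Pdgfra encodes a receptor for platelet-derived growth factors and is a widely used fibroblast marker. Its body (chromosome 5, 75151322 to 75198206, GRCm38) lies inside the bin from 75000001 to 75300000, with Chic2 and the homeobox gene Gsx2. Of the 6 genes, it alone had a promoter window in the RefSeq table used. For that reason no other promoter of the 6 is shown. The 250 bases before the start site that table uses (RefSeq, GRCm38.p6, chr5:75152001-75152250, plus strand), a start that lies inside the annotated body, are given 5′ to 3′ with each CpG, the dinucleotide in which most mammalian 5hmC occurs, in capitals:
Pdgfra promoter: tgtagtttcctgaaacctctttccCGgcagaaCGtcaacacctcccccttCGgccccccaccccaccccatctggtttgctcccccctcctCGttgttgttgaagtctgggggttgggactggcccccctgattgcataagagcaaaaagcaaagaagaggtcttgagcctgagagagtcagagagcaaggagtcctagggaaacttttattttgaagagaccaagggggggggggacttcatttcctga
The window holds 4 CpG (the motif CG, which reads the same on both strands). Of 32851 promoter windows of this length, 92.1% hold at least 1, and the median is 6. The bin value averages over a region far longer than this window, and 5hmC at the promoter itself was not resolved.

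The Pdgfra bin held 2.76%, 4.92%, 3.68% and 2.71% 5hmC in Phd2+/- tumours 1 to 4, against 2.51%, 2.62% and 1.92% in Phd2+/+ tumours 1 to 3. All 4 Phd2+/- tumours thus lay above all 3 Phd2+/+ tumours, though the lowest of them exceeded the highest Phd2+/+ tumour by little. Of all bins, 11.0% separated the groups in this direction and 0.933% in the other. The bin averaged 3.52% ± 1.03 in Phd2+/- (SD, n = 4) and 2.35% ± 0.377 in Phd2+/+ tumours (SD, n = 3), a difference of 1.17 percentage points (limma SE 0.643, adjusted p = 0.502; exact two-sided permutation p = 0.143), which did not pass. Without Phd2+/- tumour 2 it was 0.699. Divided by each tumour's own genome-wide mean, the level was 1.22 ± 0.271 in Phd2+/- and 1.01 ± 0.204 in Phd2+/+ tumours, and the groups overlapped (exact permutation p = 0.314). In the other model the bin held 3.87%, 2.40% and 4.10% in sFlk1 tumours, against 3.32%, 2.56% and 1.68% in empty vector tumours. Those groups overlapped, with a difference of 0.934 percentage points (limma SE 0.687, adjusted p = 0.789). It was 0.512 without empty vector tumour 3 and 1.46 without sFlk1 tumour 2.

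Pdgfrb encodes the sister receptor, found on pericytes as well as fibroblasts. Its body (chromosome 18, 61045127 to 61085067) lies in the bin from 60900001 to 61200000, one of 16 annotated genes there. The bin also holds Csf1r, the receptor for a macrophage growth factor, so the same value stands for a fibroblast and a macrophage marker. It held 3.68%, 4.64%, 3.47% and 3.50% in Phd2+/- tumours, against 2.15%, 3.52% and 3.53% in Phd2+/+ tumours. Phd2+/+ tumour 1 was low, and the other 2 Phd2+/+ tumours matched the lower Phd2+/- tumours. The difference was 0.757 percentage points (limma SE 0.658, adjusted p = 0.68), and 0.30 without Phd2+/+ tumour 1. In sFlk1 tumours the values were 2.86%, 2.67% and 5.22%, against 3.22%, 2.93% and 3.21% in empty vector tumours. The mean was 0.462 percentage points higher in sFlk1 tumours (limma SE 0.704, adjusted p = 0.908), but the difference was -0.358 without sFlk1 tumour 3, so 1 tumour set the direction.

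Col1a1 encodes a chain of type I collagen, the main fibre of connective tissue. Its body (chromosome 11, 94936224 to 94953042) lies in the bin from 94800001 to 95100000, which is gene-rich with 17 annotated genes, among them the integrin gene Itga3 and Pdk2, a kinase that restrains pyruvate oxidation. The bin held 7.62%, 2.90%, 5.19% and 4.35% in Phd2+/- tumours, against 4.16%, 2.63% and 5.24% in Phd2+/+ tumours. Phd2+/- tumour 1 was the highest of all 13 and Phd2+/- tumour 2 the second lowest, so the spread within the group exceeded the difference of 1.01 percentage points (limma SE 0.857, adjusted p = 0.671). With 1 tumour left out the difference ran from 0.136 (without Phd2+/- tumour 1) to 1.71 (without Phd2+/- tumour 2), and it was 0.317 without Phd2+/+ tumour 2 and 1.62 without Phd2+/+ tumour 3. In sFlk1 tumours the bin held 4.33%, 5.22% and 3.76%, against 3.62%, 4.34% and 3.33% in empty vector tumours, a difference of 0.674 (limma SE 0.916, adjusted p = 0.899), or 0.28 without sFlk1 tumour 2. The pooled SD within groups was 1.37 percentage points at Col1a1, above that of 94.8% of bins and larger than either of its group differences. In the other 5 bins it ran from 0.569 at Thy1 to 0.854 at Pdgfra, with a median of 0.701 over all bins.

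Dcn and Lum encode decorin and lumican, small leucine-rich proteoglycans that bind collagen fibrils and regulate their assembly. Dcn (chromosome 10, 97479500 to 97518163) has 53.0% of its body in the bin from 97200001 to 97500000 and 47.0% in the next, which runs to 97800000. The second bin also holds Lum (97565501 to 97572703) and its relatives Kera and Epyc, which encode keratocan and epiphycan, so it covers a cluster of related genes. The first Dcn bin has no other protein-coding gene. It held 4.24%, 3.05%, 2.78% and 2.33% in Phd2+/- tumours, against 2.96%, 2.16% and 3.10% in Phd2+/+ tumours. The groups overlapped widely (difference 0.362 percentage points, limma SE 0.618, adjusted p = 0.849), and without Phd2+/- tumour 1 the difference was -0.0185. Relative to each tumour's mean the direction turned too, with 1.08 ± 0.243 in Phd2+/- and 1.16 ± 0.156 in Phd2+/+ tumours. In sFlk1 tumours the first Dcn bin held 2.30%, 3.18% and 4.60%, against 2.21%, 2.0% and 2.71% in empty vector tumours. The difference of 1.05 percentage points (limma SE 0.661, adjusted p = 0.748) came to 0.433 without sFlk1 tumour 3 and 1.58 without sFlk1 tumour 1.

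The bin shared by Dcn and Lum went with its neighbour in the Phd2 model and against it in the sFlk1 model. It held 1.62%, 1.35%, 3.13% and 1.10% in Phd2+/- tumours, against 1.09%, 1.34% and 1.49% in Phd2+/+ tumours. Phd2+/- tumour 3 stood far above the rest, and the other Phd2+/- tumours ran close to the Phd2+/+ tumours. The difference of 0.497 percentage points (limma SE 0.495, adjusted p = 0.726) was 0.0539 without that tumour. In sFlk1 tumours it held 0.796%, 1.43% and 1.93%, against 2.37%, 1.34% and 2.39% in empty vector tumours, a difference of -0.648 (limma SE 0.53, adjusted p = 0.822). It ran from -0.994 without empty vector tumour 2 to -0.353 without sFlk1 tumour 1. It was the only one of the 6 bins with a lower mean in sFlk1 tumours. As the 2 bins of Dcn differed in direction, the mean over both bins weighted by the bases of Dcn in each gave 0.253 percentage points between sFlk1 and empty vector tumours (limma adjusted p = 0.948). In the Phd2 model it gave 0.425 (limma adjusted p = 0.79).

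Thy1 encodes CD90, a surface glycoprotein of fibroblasts that mouse T cells also carry. Its short body (chromosome 9, 44043384 to 44048579) covers 5196 bases of the bin from 43800001 to 44100000, where the deubiquitinase gene Usp2 and part of the adhesion gene Nectin1 also lie. The bin held 2.31%, 3.48%, 2.05% and 2.18% in Phd2+/- tumours, against 1.82%, 2.04% and 2.31% in Phd2+/+ tumours. These groups overlapped (difference 0.449 percentage points, limma SE 0.526, adjusted p = 0.773, and 0.125 without Phd2+/- tumour 2), and relative to each tumour's mean they were at 0.868 ± 0.162 in Phd2+/- and 0.881 ± 0.115 in Phd2+/+ tumours. In sFlk1 tumours the bin held 2.37%, 2.11% and 3.60%, against 1.72%, 1.10% and 1.61% in empty vector tumours. Every sFlk1 tumour exceeded every empty vector tumour, as in 3.43% of all bins (8.24% separated in the other direction). The bin averaged 2.69% ± 0.80 in sFlk1 and 1.48% ± 0.327 in empty vector tumours (SD, n = 3 each), a difference of 1.22 percentage points (limma SE 0.562, unadjusted p = 0.0397, adjusted p = 0.661). The difference thus did not pass over all bins. By exact permutation p was 0.10 (two-sided), as low as 3 against 3 allows, so that test could not reach 0.05. Without sFlk1 tumour 3, the highest of all 13, the difference was 0.761.

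**Figure D2:**
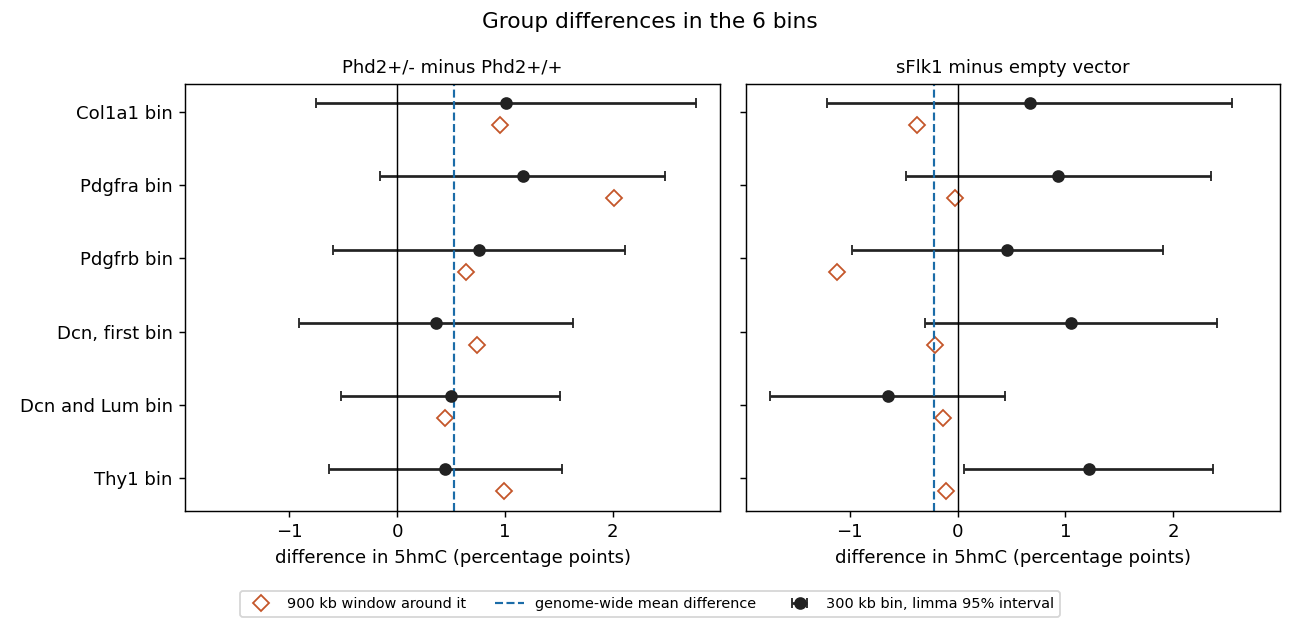
Difference in 5hmC (percentage points, x axis) for each of the 6 bins (rows), Phd2+/- minus Phd2+/+ on the left and sFlk1 minus empty vector on the right: filled points with limma 95% intervals for the 300 kb bin, open diamonds for the mean of the bin and its neighbours (900 kb), dashed line for the genome-wide difference. All intervals but that of Thy1 in the sFlk1 model (0.0616 to 2.37) include 0, and 5 diamonds on the right lie below 0 where their points lie above it.

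Counted together, all 6 had a higher mean in Phd2+/- tumours, as had 75.1% of all bins (24.8% had a lower one). The median difference was 0.627 percentage points, beside 0.385 for all bins. After division by each tumour's mean 4 of 6 were higher, as were 46.8% of all bins. In sFlk1 tumours 5 of 6 had a higher mean, as had 40.3% of all bins (59.5% had a lower one), and the median difference was 0.804 beside -0.146 for all bins. The count was 4 of 6 without sFlk1 tumour 3. Divided by the tumour's mean it was 5 of 6, beside 51.9% of all bins. These 6 bins were not drawn independently, 2 of them being adjacent, and no test was made over them.

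Relative to the tumour, the mean of the 6 bins was 1.26, 1.07, 1.2 and 1.06 times the genome-wide mean in Phd2+/- tumours, and 1.01, 1.09 and 1.22 times in Phd2+/+ tumours. It was 1.15, 1.14 and 1.54 times in sFlk1 tumours, and 0.959, 0.912 and 0.969 times in empty vector tumours. In the 3 empty vector tumours the mean of the 6 bins thus lay below the genome-wide mean, and in the 3 sFlk1 tumours above it. Even so, 3 or 4 single bins of each empty vector tumour and 1 to 3 of each sFlk1 tumour were below. As percentages, the mean of the 6 bins was 2.75%, 2.83% and 3.87% in sFlk1 tumours. It was 2.74%, 2.38% and 2.49% in empty vector tumours, so the lowest sFlk1 tumour barely exceeded the highest empty vector tumour. The divisor, the genome-wide mean, was lower in sFlk1 (2.46%) than in empty vector tumours (2.68%). Also as percentages, 3.43% of all single bins separated these groups with sFlk1 higher and 8.24% with sFlk1 lower, and 1 of the 6 did, higher. How often means of 6 other bins separate the groups was not tested. With neighbours averaged in (900 kb), 0 of the 6 had a higher mean in sFlk1 tumours. sFlk1 tumour 3 stood highest of its model, and it was the highest of all 13 tumours in 3 of the 6 bins, those of Pdgfrb, Thy1 and the first part of Dcn.

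**Figure D3:**
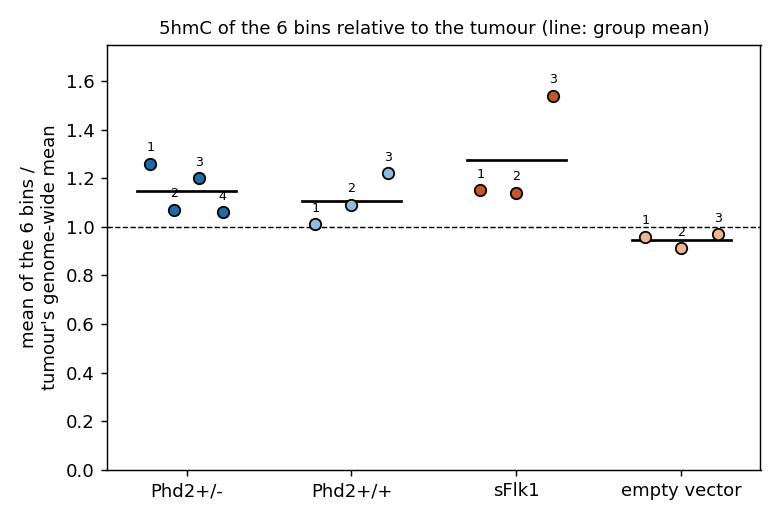
Mean 5hmC of the 6 bins divided by the tumour's genome-wide mean (y axis, ratio) for each tumour (points, with replicate number) in the 4 groups; lines are group means and the dashed line is 1. Empty vector tumours lie at 0.912 to 0.969, and sFlk1 tumour 3 at 1.54 is the highest.

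Most of the 6 bins lay lower than the bins beside them, though how often other bins do so was not counted. The Pdgfra bin lay below both adjacent bins in 11 of 13 tumours, the Pdgfrb bin in 12 of 13 and the Thy1 bin in 10 of 13, the Dcn and Lum bin in 8 of 13, the Col1a1 bin in 3 of 13 and the first Dcn bin in 2 of 13. On the right of Pdgfra, the bin whose only protein-coding gene is Kit, a receptor tyrosine kinase, averaged 6.45% over the 13 tumours, above the Pdgfra bin in 13 of 13. On the left of Pdgfrb, the bin with Ndst1 and Synpo averaged 6.11%. To the right of Thy1, that of the ubiquitin ligase gene Cbl averaged 5.15%, above Thy1 in 13 of 13. The Dcn and Lum bin was the lowest of the 11 bins within 1.5 Mb on either side. 5hmC reached 6.01% in a bin without a protein-coding gene on its left and 6.38% at the calcium pump gene Atp2b1 on its right. The trough was the lowest of the 11 bins in each of the 4 groups, at a mean of 1.8% in Phd2+/-, 1.31% in Phd2+/+, 1.38% in sFlk1 and 2.03% in empty vector tumours.

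**Figure D4:**
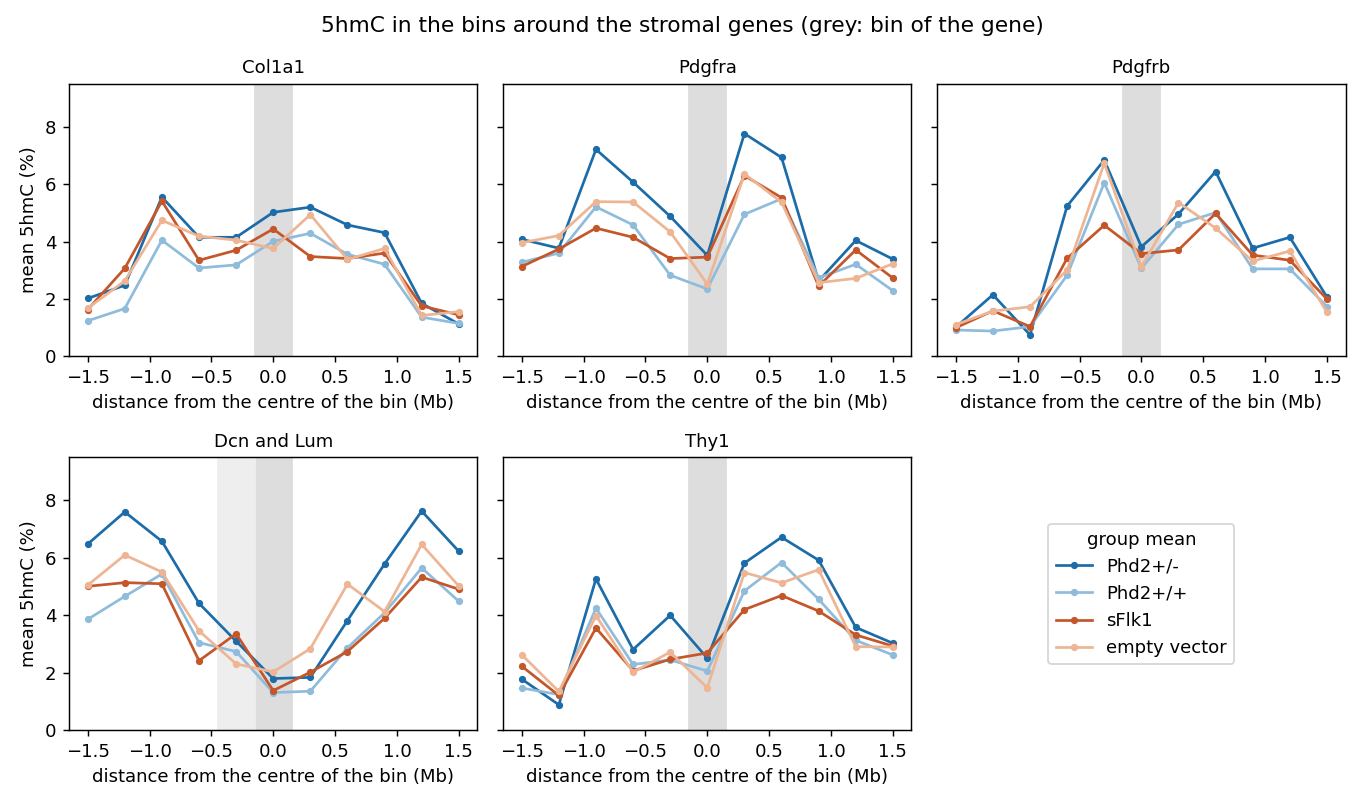
Group mean of 5hmC (%, y axis) in the bins within 1.5 Mb on either side of the Col1a1, Pdgfra, Pdgfrb, Dcn and Lum, and Thy1 bins, by distance from the bin's centre (x axis, Mb); dark grey marks the bin of the gene and light grey the first Dcn bin. The Dcn and Lum bin is the low point of its window at 1.64% over all tumours, and at the peaks on either side of it the Phd2+/- mean exceeds the Phd2+/+ mean.

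Of the 10 bins that adjoin the 6 and are no member, 10 had a higher mean in Phd2+/- than in Phd2+/+ tumours, and 0 had a higher mean in sFlk1 than in empty vector tumours. None passed (lowest limma adjusted p = 0.339 and 0.629), so these counts describe direction only, beside the 75.1% and 40.3% of all bins. After division by the tumour's mean, 7 of the 10 were higher in Phd2+/- and 2 of the 10 in sFlk1 tumours. The Kit bin beside Pdgfra held 7.76% ± 1.19 (SD, n = 4) in Phd2+/- and 4.95% ± 0.538 (SD, n = 3) in Phd2+/+ tumours (difference 2.80 percentage points, beside 1.17 at Pdgfra, limma SE 0.926, adjusted p = 0.339; exact permutation p = 0.0286). The left neighbour of Pdgfra, where Lnx1 is the only protein-coding gene, held 4.88% ± 0.949 in Phd2+/- and 2.83% ± 0.69 in Phd2+/+ tumours (exact permutation p = 0.0286, limma adjusted p = 0.35). Left of Thy1, in the bin where Nectin1 is the only protein-coding gene, 5hmC was 4.0% ± 0.345 in Phd2+/- and 2.45% ± 0.812 in Phd2+/+ tumours (exact permutation p = 0.0286, limma adjusted p = 0.357). In each of these bins the groups did not overlap, as in 11.0% of all bins in this direction, and 0.0286 is the smallest p possible. They were picked from the 10 after the values were seen. Divided by the tumour's mean, the exact permutation p was 0.0571 at Kit, 0.114 at Lnx1 and 0.2 at the bin left of Thy1.

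In sFlk1 tumours the bins on either side of Pdgfrb went the other way from Pdgfrb. The left one held 4.57% ± 0.533 in sFlk1 and 6.73% ± 1.13 in empty vector tumours (SD, n = 3 each; limma adjusted p = 0.629), with no overlap, as in 8.24% of all bins in this direction. The right one held 3.71% ± 1.31 in sFlk1 and 5.36% ± 0.548 in empty vector tumours (limma adjusted p = 0.661). Averaged with their neighbours into 900 kb windows, 0 of the 6 bins had a higher mean in sFlk1 tumours, so the direction of 5 of the 6 depended on the size of the window. In Phd2+/- tumours the 900 kb windows of all 6 kept a higher mean, with the largest difference at Pdgfra (2.01 percentage points, limma adjusted p = 0.0953). There the neighbours carried most of it, with differences of 2.06 on the left and 2.8 on the right, against 1.17 in the Pdgfra bin itself. The share of all 900 kb windows with a higher mean was not counted in either comparison, and the windows of the 2 Dcn bins overlap.

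Other genes of the stroma were taken from 6 lists with 57 genes, each gene in the bin holding most of its body. Several genes share a bin, so the 57 genes stand in 51 bins, and 2 of them, Kera and Epyc, carry the value of the Dcn and Lum bin. None passed in either comparison over all bins. In Phd2+/- tumours 51 of 57 genes had a higher mean and 2 had an unadjusted limma p under 0.05, both higher, beside 10.4% of all bins, with a median difference of 0.461 percentage points. After division by the tumour's mean, 24 of 57 were higher. In sFlk1 tumours 21 of 57 had a higher and 36 a lower mean, and 6 had an unadjusted p under 0.05, all of them lower, beside 5.06% of all bins. Of these 6, Col6a1 and Col6a2 are 1 bin. The genes had a median difference of -0.168. The counts of higher means are to be read beside the 75.1% and 40.3% of all bins with a higher mean. The groups did not overlap for 4 of 57 genes in the Phd2 model, all higher in Phd2+/-, beside 11.0% of all bins. In the sFlk1 model they did not overlap for 7 of 57, all lower in sFlk1, beside 8.24% of all bins. Only some of these genes are pointed out below.

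The ligands of the PDGF receptors had a higher mean for 4 of 4 in Phd2+/- and for 3 of 4 in sFlk1 tumours. The bin of Pdgfb, the ligand that draws pericytes to vessels, held 4.11% ± 0.324 (SD, n = 4) in Phd2+/- and 3.22% ± 0.308 (SD, n = 3) in Phd2+/+ tumours. The groups did not overlap (exact permutation p = 0.0286, the smallest possible, limma adjusted p = 0.613). That of Pdgfd held 1.85% ± 0.855 in sFlk1 and 0.98% ± 0.423 in empty vector tumours (SD, n = 3 each; limma adjusted p = 0.757), a difference of 0.868 that ran from 0.576 without sFlk1 tumour 1 to 1.36 without sFlk1 tumour 3. Collagens other than Col1a1 had a higher mean for 9 of 10 in Phd2+/- and for 4 of 10 in sFlk1 tumours. At Col12a1, a collagen that decorates fibrils, the bin held 3.36% ± 0.814 in Phd2+/- and 2.30% ± 0.446 in Phd2+/+ tumours (limma adjusted p = 0.494). The bin shared by Col6a1 and Col6a2 held 1.43% ± 0.184 in sFlk1 and 2.50% ± 0.66 in empty vector tumours (limma adjusted p = 0.686).

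Matrix proteoglycans, several of which share bins, had a higher mean for 10 of 10 in Phd2+/- and for 1 of 10 in sFlk1 tumours. The smallest p-values were at Bgn, which encodes biglycan (2.27% ± 0.629 in Phd2+/- and 1.28% ± 0.47 in Phd2+/+ tumours, limma adjusted p = 0.475), and in the sFlk1 model at Epyc, in the bin of Dcn and Lum. Matrix glycoproteins had a higher mean for 6 of 7 in Phd2+/- tumours, led by Fn1, the fibronectin gene (4.04% ± 0.571 in Phd2+/- and 2.87% ± 0.317 in Phd2+/+ tumours, limma adjusted p = 0.508), and for 3 of 7 in sFlk1 tumours. The bin of Postn, which encodes periostin, held 1.82% ± 0.444 in sFlk1 and 3.81% ± 0.869 in empty vector tumours (difference -1.99 percentage points, limma adjusted p = 0.55), with no overlap.

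Matrix enzymes had a higher mean for 10 of 12 in Phd2+/- and for 4 of 12 in sFlk1 tumours. Both comparisons were led by Serpinh1, whose product HSP47 is the collagen chaperone of the endoplasmic reticulum. Its bin held 6.47% ± 1.72 (SD, n = 4) in Phd2+/- and 4.45% ± 0.884 (SD, n = 3) in Phd2+/+ tumours (limma adjusted p = 0.437), a difference of 2.02 percentage points that came to 1.18 without Phd2+/- tumour 1. In the other model it held 4.22% ± 0.965 in sFlk1 and 6.66% ± 1.40 in empty vector tumours (SD, n = 3 each; limma adjusted p = 0.627). Other fibroblast and pericyte markers had a higher mean for 12 of 14 in Phd2+/- tumours, led by Islr (3.14% ± 0.889 in Phd2+/- and 2.24% ± 0.988 in Phd2+/+ tumours, limma adjusted p = 0.594, difference 0.898 and 0.332 without Phd2+/+ tumour 1), and for 6 of 14 in sFlk1 tumours. At Twist1, a transcription factor of mesenchymal cells, the bin held 0.995% ± 0.637 in sFlk1 and 2.63% ± 0.302 in empty vector tumours (limma adjusted p = 0.544), without overlap.

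**Figure D5:**
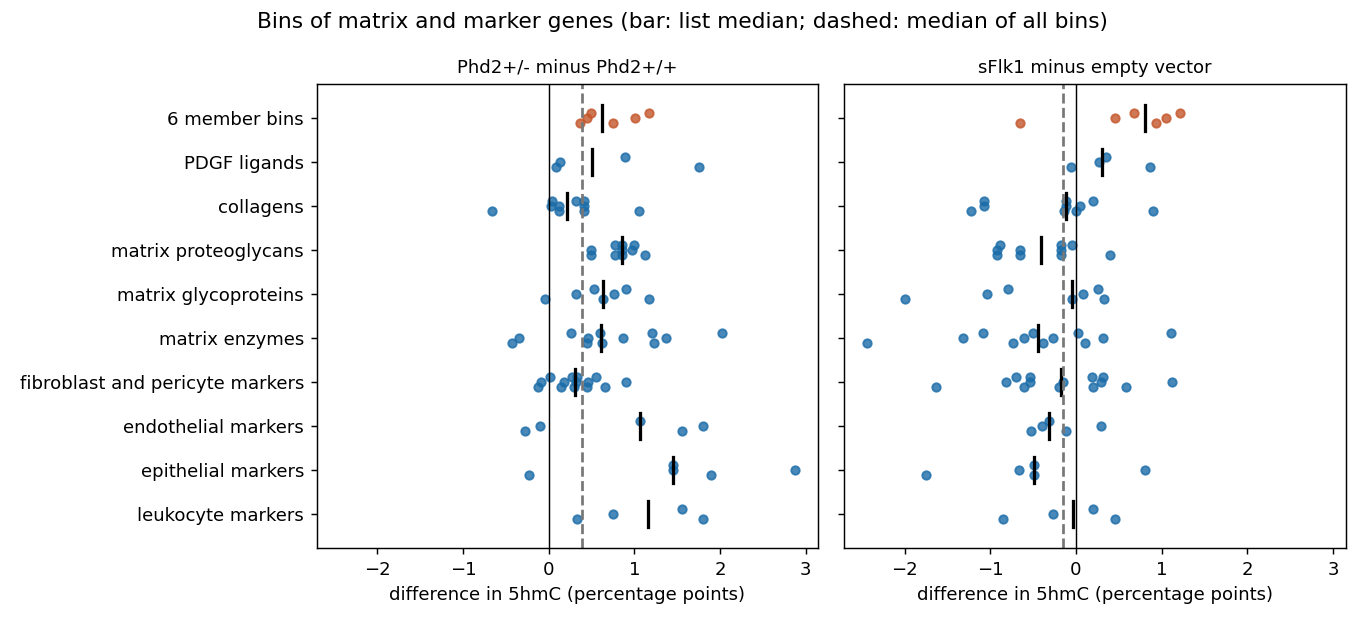
Difference in 5hmC (percentage points, x axis) for the 6 bins (orange) and for each gene of the 9 lists (blue, rows), Phd2+/- minus Phd2+/+ on the left and sFlk1 minus empty vector on the right; black bars are list medians and the dashed line is the median of all bins. On the right the 6 bins have a median of 0.804, and the stromal lists have medians from -0.445 to 0.306.

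Markers of other cell types of the tumour were counted in the same way. Among them Csf1r carries the value of the Pdgfrb bin, and Krt8 and Krt18 share a bin. In Phd2+/- tumours the mean was higher for 3 of 5 endothelial, 4 of 5 epithelial and 4 of 4 leukocyte genes, with median differences of 1.07, 1.45 and 1.16 percentage points. In sFlk1 tumours it was higher for 1 of 5, 1 of 5 and 2 of 4, with medians of -0.315, -0.484 and -0.03. Of all bins, 75.1% and 40.3% had a higher mean. In the Phd2 model 2 of 5, 2 of 5 and 1 of 4 had an unadjusted limma p under 0.05, all higher in Phd2+/-, beside 10.4% of all bins. None had one in the sFlk1 model. The smallest unadjusted limma p-values of each list were at Esam (0.00162), Gata3 (0.00285) and Cd14 (0.00421) in the Phd2 model. In the sFlk1 model they were at Tek (0.451), Gata3 (0.0728) and Itgam (0.375), and none of these genes passed over all bins in either model. Their part in the values of the stromal bins was not tested.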

How the data were processed

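The authors deposited 1 table of 5hmC percent per 300 kb bin, 9097 bins with 1 column per tumour. Per the submitters' processing notes, Bismark 0.13.1 and mm9 were named, with no role given. The last bin of chromosome 1 ends at 195471971, the GRCm38 length, so coordinates are GRCm38. How reads were pooled in a bin, the coverage minimum and the conversion rate were not given in the sources used here. As read counts are lacking, the depth of each tumour is unknown and there is no counting interval. The p-values rest on the spread between tumours, in which the sampling of reads cannot be told apart from differences of the tumours. Those of limma also draw on the spread in other bins. A 0 may stand for no data, but all 6 bins were above 0 in all 13 tumours.

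Tests covered the 8576 bins that lie off chromosome Y and mitochondrial DNA and have a value above 0 in some tumour. limma 3.58.1 in R 4.3.3 was fitted to the percentages with 4 group means and a trend, adjusted by Benjamini-Hochberg at 0.05. The fit was also run on simulated independent bins, with no shift or shifts larger than the differences of the 6 bins. That run checked the working of the fit only and says nothing about differences of the size seen here. Exact two-sided permutations used the 7 or 6 tumours of a model. Genes were placed with RefSeq GRCm38.p6, in which 71 of 71 listed genes matched. From each list the gene with the smallest p in each comparison was named, and the bins most alike by Pearson's r. Neighbouring bins were named after their values were seen. The members and lists were chosen with earlier results of these data known. Alternatives were other scales, filters, fits and windows, and leaving out each tumour.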

Additional observations from a re-analysis of the deposited data

How the results depend on the processing

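For the 12 differences of the 6 bins, 280 of 290 alternatives kept the direction and stayed above an adjusted p of 0.05 (0.0953 to 1.0), and 10 turned the direction. Many of the 290 could not turn it, so the count overstates how steady the directions are. Leaving out a tumour of the other model returns the same difference, as do fits without the trend, with only 2 groups or on fewer bins. In the Phd2 model the replicate block repeats the differences without Phd2+/- tumour 4. Between Phd2+/- and Phd2+/+ tumours the first Dcn bin turned to -0.0875 when divided by the tumour's mean, to -0.0737 when divided by its median, and ran from -0.0185 to 0.619 with 1 tumour left out. Thy1 turned to -0.0133 when divided by the tumour's mean. Between sFlk1 and empty vector tumours the 900 kb windows gave -0.379 at Col1a1, -0.02 at Pdgfra, -1.12 at Pdgfrb, -0.213 at the first Dcn bin and -0.107 at Thy1, which is 0 of 6 bins higher, since these windows take in neighbours that were lower. Pdgfrb ran from -0.358 to 0.918 with 1 tumour left out. The number of all bins called for Phd2+/- against Phd2+/+ was 1 on the log2 scale and 0 to 1 with 1 tumour left out. For sFlk1 against empty vector it was 0 with 900 kb windows and 1 to 4 with 1 tumour left out. Where a call or direction moved for another reason, the cause was not tested. With the replicate number as a block, in which Phd2+/- tumour 4 has no partner, 1 bin was called in each comparison. Same-numbered tumours did not deviate together (r from -0.0934 to -0.00429 over 6 pairs, and 0 of 12 tumours were closest to their own number). Differently numbered tumours of a model also had r near 0 (-0.0554 to 0.0787). No pairing by number was seen, but such low r cannot exclude one. Unknown depth limits every bin value.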

Other observations

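For each of the 6 bins, the bins whose values over the 13 tumours were most alike, after division by the tumour's mean, had Pearson r of 0.811 to 0.917. The closest bin to the first Dcn bin was on chromosome 9 from 73200001 to 73500000 with Unc13c (r = 0.917), and to Thy1 one on chromosome 18 from 76800001 to 77100000 with Katnal2 and Skor2 (r = 0.908). For Pdgfrb it was on chromosome 15 from 100500001 to 100800000 with Tfcp2 and Galnt6 (r = 0.882). For Col1a1 (r = 0.856) it held no annotated gene, for Pdgfra (r = 0.816) only pseudogenes led, and for the Dcn and Lum bin (r = 0.82) it was led by a long non-coding RNA gene. Each is the highest correlation among all bins tested, over 13 tumours that share their mean as divisor, and is a description only. None of these bins lies beside the bin it resembles. The closest bins to Col1a1, Pdgfra and the Dcn and Lum bin averaged only 0.639%, 1.12% and 0.987% over the 13 tumours, where the median bin held 2.36%. Those closest to the first Dcn bin, Thy1 and Pdgfrb averaged 2.71%, 2.58% and 4.06%.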
